A study of Mus musculus with 69 samples.

Results

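The 200M effect on the ovarian transcriptome was compared between older and young female mice. 200M mice are homozygous for a knock-in allele of Zeb1 in which the binding sites of miR-200a and miR-200b in the 3′ UTR are mutated, so that these miRNAs can no longer repress this target. The comparison was chosen by design, as the genotype by cohort interaction: the 200M minus WT difference in older ovary minus the same difference in young ovary. It used 16 of the 69 libraries of the series, with 4 libraries in each of older WT, older 200M, young WT and young 200M ovary. A positive interaction means that the 200M minus WT difference was more positive in older than in young ovary.

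The older ovaries came from females that had been paired with males in a fertility trial and were 28 to 36 weeks old. The young ovaries came from virgin females of 8 to 12 weeks. The paper reports that most homozygous mutant females produced no litters in that trial, and that the others had fewer than WT. Pregnancy history therefore differed between the genotypes in the older cohort as a whole, and the labels do not give it for the sequenced mice. Any such difference enters the older genotype difference and the interaction, and its part was not tested. All 16 mice were staged at proestrus, on a background backcrossed to C57BL/6J, and WT mice carried unmutated Zeb1. The knock-in was made in embryonic stem cells and carried in a pair of clonal lines, it is present in every tissue, and each library came from a different mouse. Older ovary was sequenced as poly(A)-selected RNA and counted without strand. Young ovary was sequenced as rRNA-depleted RNA with a stranded kit and counted on the transcript's strand. Age, breeding history and library chemistry therefore changed together between the cohorts. The paper also gives different housing, sequencers, read layouts and mixes of clonal lines for them. The parts of all of these in any interaction cannot be told apart. The 200M minus WT differences within a cohort do not cross the chemistries, but an unequal response of the chemistries to the same change enters the interaction.

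The miR-200 family is expressed in epithelia and in the pituitary, where it represses Zeb1 and Zeb2, transcription factors that repress epithelial genes. In the cycling ovary, follicles grow, ovulate in response to luteinizing hormone (LH), and are converted to corpora lutea, which make progesterone and then regress. Macrophages are normal residents of the ovary and take up the cells of regressing follicles and corpora lutea. Cells that present antigen on MHC class I molecules need the light chain B2m for this.

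The miR-200 family sequences are shown because the mutated allele is defined by their seeds, the bases 2 to 8 that pair with a target, which are printed in capitals. The mature sequences are those of RefSeq (GRCm38.p6). Of the members, miR-200b, miR-200c and miR-429 share 1 seed, and miR-200a and miR-141 share the other, which differs from it at a single base.
miR-200a-3p: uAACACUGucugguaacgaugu
miR-141-3p: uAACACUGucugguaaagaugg
miR-200b-3p: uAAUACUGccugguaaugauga
miR-429-3p: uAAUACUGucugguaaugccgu
miR-200c-3p: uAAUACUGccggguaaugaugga
The genes of miR-200b, miR-200a and miR-429 lie on chromosome 4 and those of miR-200c and miR-141 on chromosome 6.

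Total counts per library ranged from 7985206 to 13267062 in older ovary and from 6337205 to 12896366 in young ovary, and 15776 genes had enough counts in each cohort to be tested. The first principal component, with 70.8% of the variance, separated the cohorts. The libraries of older WT replicate 1 and older 200M replicate 3 stood apart by markers of the oviduct: the summed level of 12 listed markers was 1227 and 4454 CPM (counts scaled to a common library total), against 149 to 165 in the other older WT libraries and 223 to 510 in the other older 200M libraries. Older 200M replicate 3 also had a summed level of fat markers of 2598 CPM, against 315 to 421 in the other older 200M libraries. Young 200M replicate 2 stood apart by luteal genes, as given below. List medians that moved by over 1.5 times without these libraries are given both ways below.

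Zeb1 itself, the mutated gene, did not differ in RNA level between the genotypes in either cohort at this depth. In older ovary it stood at 69.3, 88.1, 92.0 and 96.8 CPM in WT and at 84.1, 72.7, 56.6 and 81.9 CPM in 200M. In young ovary it stood at 222, 207, 244 and 216 CPM in WT and at 222, 216, 200.2 and 215 CPM in 200M. The genotypes overlapped in both cohorts, and the interaction was -0.17 ± 0.17 (log2, SE; adjusted p = 0.667). Fold changes here and below are log2 values from a quasi-likelihood fit over the 16 libraries, given ± SE, and p-values are Benjamini-Hochberg adjusted over the genes tested. The mutated bases lie in the 3′ UTR and do not remove the transcript, so its RNA level is a weak check of the genotype labels. Zeb2, the paralog that the same miRNAs target, had an interaction of -0.05 ± 0.28 (adjusted p = 0.956). Gm13648, which overlaps the miR-200b, miR-200a and miR-429 genes, stood between 0.112 and 4.94 CPM over all 16 libraries, with an interaction of 0.80 ± 1.07 (adjusted p = 0.762).

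The 200M effect differed between older and young ovary in 63 of 15776 genes (0.399%) at an adjusted p under 0.05, and it was more positive in older ovary for 45 (0.285%) and more negative for 18 (0.114%). At that share, a gene list of the size used below would mostly hold 0 called genes. At an unadjusted p under 0.05 there were 2197 genes (13.9%). Within the same fit, 1657 genes (10.5%) differed between 200M and WT in older ovary, 866 higher (5.49%) and 791 lower (5.01%) in 200M. In young ovary 6 genes (0.038%) did, 2 higher (0.0127%) and 4 lower (0.0254%), and 1422 had an unadjusted p under 0.05. The common dispersion, the squared coefficient of variation between mice, was 0.0917 in the older libraries fitted by themselves, 0.0131 in the young libraries and 0.0532 over all 16. With each cohort fitted by itself, the calls were 392 in older ovary, 606 in young ovary and 683 for the interaction, and these included all 63.

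The interaction count depended strongly on single libraries. It was 3, 33, 11 and 5 without young WT replicates 1 to 4 and 27, 19, 15 and 11 without young 200M replicates 1 to 4. It was 144, 8, 27 and 70 without older WT replicates 1 to 4 and 13, 304, 180 and 61 without older 200M replicates 1 to 4. Without the 2 libraries rich in oviduct markers it was 330, and without these and young 200M replicate 2 it was 211. Of the 63 genes, 63 and 59 remained called in these last fits.

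Single genes held to different degrees when 1 library was left out, and none of the named calls changed sign. B2m, Acp5 and Gpr141 remained called in 16 of the 16 such fits, C7 in 15, Fgr, Naip5 and Lipg in 14, and Myh6 in 13. Cdkn1c and Cd4 remained called in 12, Plekhg4 in 11, Arhgap45 and H2-D1 in 10, and Sdc1 in 9. Apoe and Fcer1g remained called in 7, Gm19410 and Map1b in 6, Gas2, Gm17322 and Gm4673 in 5, and Bmp6 and Tyrobp in 4. Of these genes, B2m, Acp5, Gpr141, C7, Myh6, Cdkn1c, Plekhg4, Gas2, Gm19410, Bmp6 and Gm4673 overlap an annotated gene on the other strand. The unstranded older counts cannot separate the reads of such a pair. The fit without such genes, given below, did not test them. The called genes named for their small p were taken from those whose genotypes did not overlap in at least 1 cohort. For these genes, a lack of overlap given below is part of that choice.

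Nearly all of the 63 genes were also called in older ovary, and 0 of the 45 higher ones in young ovary, where 0.038% of all genes were. Choosing genes by the interaction in the same fit can by itself give large older and small or opposite young values. With the young cohort fitted by itself, 7 of the 63 were called lower in young 200M ovary and 0 higher, against 2.59% and 1.26% of all genes. Of these 7, B2m, C1s1, Gm27533 and Mir5107 had a more positive effect in older ovary. Of the 45 more positive in older ovary, 44 were called higher in 200M older ovary, as were 5.49% of all genes. Their median log2 fold change was 1.21 in older and -0.08 in young ovary, beside 0.03 and 0.01 over all genes tested, and the 95% interval of the young value included 0 for 34. Their older and young values had opposite signs for 28. The 18 more negative were all called lower in 200M older ovary, where 5.01% of all genes were. Their medians were -1.91 and -0.14, and for 11 the young value was also below 0 and smaller in size. Of the 63 genes, 32 overlap an annotated gene on the other strand, whose reads the unstranded older counts cannot separate. Such overlap is common, as only 8685 of all 15776 genes tested were without it. With such genes left out, 25 genes were called among these 8685.

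**Figure D1:**
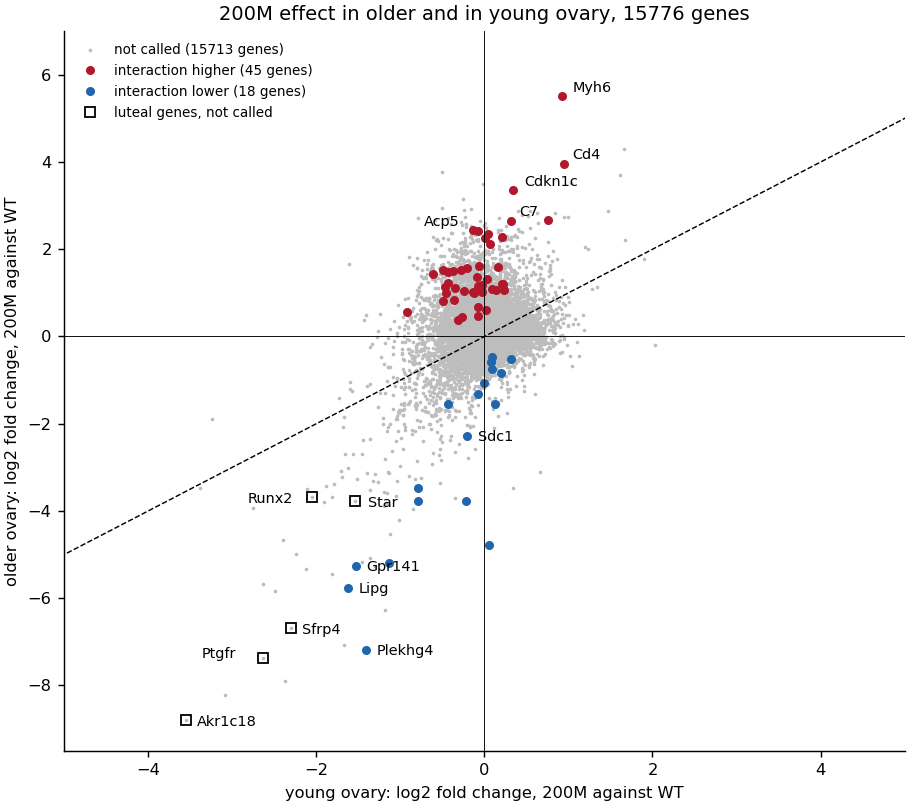
Each of the 15776 genes tested is a point at its log2 fold change (200M over WT) in young ovary on the x axis and in older ovary on the y axis. The 63 genes with an interaction, 45 higher and 18 lower, are coloured and lie off the diagonal, and luteal genes that were not called are boxed.

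The genes called in 1 cohort had smaller median fold changes in the other, which choosing them by that call can give by itself. The 866 genes called higher in older ovary had a median log2 fold change of 0.90 there and 0.08 in young ovary, and 538 of them (62.1%) were above 0 in young ovary. The 791 genes called lower had medians of -0.78 and -0.20, and 652 (82.4%) were below 0 in young ovary. With the young cohort fitted by itself, 198 genes were called higher in young 200M ovary (1.26%), with medians of 0.47 in young and 0.09 in older ovary, and 408 lower (2.59%), with medians of -0.57 and -0.44. The older and young values share no library. Over all genes Pearson's r between them was 0.32 and Spearman's rank correlation 0.17, as a description across genes that are not independent.

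Genes of antigen presentation were among those whose 200M effect was more positive in older ovary. Of 16 listed genes, all tested, 2 were called for the interaction (B2m and H2-D1) and 12 had an unadjusted p under 0.05 and a more positive effect in older ovary, where 7.4% of all genes did. The list's median interaction was 0.95, from 0.66 in older and -0.31 in young ovary, beside -0.00 over all genes. In older ovary 9 of the 16 were called higher in 200M, as were 5.49% of all genes, and 0 lower. With the older cohort fitted by itself, 4 were called higher, as were 209 of all 15776 genes. The older libraries of 6 did not overlap with 200M higher, where 6.17% of all genes did not. With the young cohort fitted by itself, 3 were called lower in young 200M ovary (H2-Aa, H2-Ab1 and B2m) and 0 higher. Of all genes, 2.59% were called lower in that fit. Without the 2 oviduct-rich libraries 4 were called for the interaction, and without young 200M replicate 2 only 1 was.

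B2m (ENSMUSG00000060802.8, chr2:122147686-122153083, GRCm38), the light chain of MHC class I, stood at 273, 236, 250.2 and 263 CPM in older WT and at 723, 551, 406 and 514 CPM in older 200M ovary. Young ovary held 1582, 1791, 1624 and 1973 CPM in WT and 1613, 1232, 1261 and 1368 CPM in 200M. Every older 200M library was above every older WT library, while the young genotypes overlapped. The interaction was 1.45 ± 0.21 (adjusted p = 0.0181), from 1.10 ± 0.15 in older and -0.35 ± 0.15 in young ovary, and it was called in each of the 16 fits that left out 1 library. H2-D1, a class I heavy chain, rose from 183 to 240 CPM in older WT to 420 to 726 CPM in older 200M ovary. It stood at 52.3 to 65.1 CPM in young WT and 52.6 to 66.5 CPM in young 200M ovary, and its interaction was 1.30 ± 0.22 (adjusted p = 0.0262). Class I genes have near-identical relatives that share reads, so its counts are uncertain.

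Macrophage genes had the most positive median interaction among the immune lists. Of 22 listed genes 21 were tested, and 2 were called (Fcer1g and Tyrobp) and 15 had an unadjusted p under 0.05 with a more positive effect in older ovary, where 0.285% and 7.4% of all genes did. The median interaction was 1.78, from 1.57 in older and -0.14 in young ovary, and 14 were called higher in older 200M ovary, as were 5.49% of all genes. With the older cohort fitted by itself, 6 were called higher, as were 209 of all 15776 genes. The summed level of the list was 610, 701, 1346 and 1456 CPM in older WT and 9591, 2663, 2671 and 6944 CPM in older 200M ovary. It was 495, 411, 532 and 593 CPM in young WT and 731, 584, 719 and 499 CPM in young 200M ovary. Older 200M libraries were all above older WT libraries and the young genotypes overlapped. The list's interaction calls numbered 7 without the 2 oviduct-rich libraries, 4 without these and young 200M replicate 2, and 0 without young 200M replicate 2 alone. In bulk ovary, more cells of a type and more RNA per cell cannot be told apart.

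Tyrobp, an adaptor that signals for activating receptors of myeloid cells, stood at 15.5, 16.6, 26.7 and 31.9 CPM in older WT and at 154, 77.2, 60.6 and 102 CPM in older 200M ovary. Its levels in young ovary were 9.55, 7.34, 8.36 and 12.1 CPM in WT and 9.75, 9.24, 11.7 and 8.53 CPM in 200M. The older genotypes did not overlap and the young did, with an interaction of 2.06 ± 0.41 (adjusted p = 0.0422). Fcer1g, the signalling chain of Fc receptors, stood at 12.4 to 23.5 CPM in older WT and at 36.3 to 73.2 CPM in older 200M ovary, and at 34.3 to 43.4 and 27.0 to 43.1 CPM in young WT and young 200M ovary. Its interaction was 1.78 ± 0.33 (adjusted p = 0.0351). Both calls were lost without young 200M replicate 2, at adjusted p = 0.087 for Tyrobp and 0.0684 for Fcer1g, with log2 interactions of 2.03 and 1.78 there.

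Of the lymphocyte list, 9 of 16 genes were tested, 1 was called (Cd4), and the median interaction was 1.28, from 1.56 in older and 0.45 in young ovary. The median was 0.79, with Cd4 called, without the 2 oviduct-rich libraries and young 200M replicate 2. Cd4, the coreceptor of helper T cells that some myeloid cells also express, stood at 2.18, 2.04, 4.36 and 4.22 CPM in older WT and at 75.9, 31.9, 32.4 and 57.5 CPM in older 200M ovary. The young libraries stood at 5.24, 4.94, 5.54 and 10.0 CPM in WT and at 14.0, 8.71, 15.7 and 11.4 CPM in 200M. The interaction was 3.0 ± 0.49 (adjusted p = 0.0246) and the fold change in older ovary 3.95 ± 0.36. Cd3e and Lck, which mark T cells at large, were higher in older 200M ovary by 1.21 and 1.08 (log2; adjusted p = 0.00792 and 0.0114), and their interactions were 0.72 and 0.76 (adjusted p = 0.398 and 0.36). In older ovary 7 lymphocyte genes were called higher in 200M, or 2 with that cohort fitted by itself.

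The other most strongly called genes on this side were not immune list members, though Fgr and Arhgap45 are expressed in blood-forming lineages. Acp5, the tartrate-resistant acid phosphatase of osteoclasts and some macrophages, stood at 10.7, 11.8, 16.1 and 16.9 CPM in older WT and at 113, 49.5, 61.9 and 71.9 CPM in older 200M ovary. In young ovary its 8 libraries ranged from 3.84 to 6.97 CPM and the genotypes overlapped. Its interaction of 2.49 ± 0.36 (adjusted p = 0.0181) was called in each of the 16 fits that left out 1 library. Fgr, a Src-family kinase of myeloid cells, stood at 1.75 to 2.18 CPM in older WT and at 3.71 to 7.37 CPM in older 200M ovary (interaction 2.02 ± 0.31, adjusted p = 0.021). Arhgap45, a GTPase-activating protein, had an interaction of 1.23 ± 0.20 (adjusted p = 0.0246).

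C7, a component of the complement membrane attack complex, stood at 9.39, 16.7, 21.2 and 23.7 CPM in older WT and at 129, 75.2, 99.3 and 142 CPM in older 200M ovary. In young ovary it stood at 30.9 to 45.1 CPM in WT and at 38.3 to 55.7 CPM in 200M, and the interaction was 2.34 ± 0.34 (adjusted p = 0.0181). Cdkn1c, an imprinted inhibitor of cyclin-dependent kinases, stood at 13.6, 14.7, 16.2 and 21.7 CPM in older WT and at 306, 95.4, 80.7 and 199 CPM in older 200M ovary. The young libraries of Cdkn1c lay between 17.8 and 30.2 CPM, and its interaction was 3.02 ± 0.47 (adjusted p = 0.021). The older 200M libraries of both genes lay above all older WT libraries.

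Myh6, the alpha heavy chain of cardiac myosin, had the largest interaction among the named genes on this side, 4.60 ± 0.77 (adjusted p = 0.0262). It stood at 0.839, 0.529, 0.0872 and 0.23 CPM in older WT and at 13.4, 29.3, 24.6 and 12.6 CPM in older 200M ovary, and at 1.18 to 4.05 and 1.72 to 7.63 CPM in young WT and young 200M ovary. Naip5, an intracellular sensor of bacterial flagellin, had an interaction of 2.31 ± 0.37 (adjusted p = 0.0222), uncertain because its paralogs can share reads. Apoe, an apolipoprotein that carries cholesterol and is made by macrophages and steroidogenic cells, stood at 601, 590, 977 and 963 CPM in older WT and at 2913, 2364, 1952 and 2173 CPM in older 200M ovary. Its young libraries lay between 134 and 202 CPM with the genotypes overlapping, and its interaction was 1.42 ± 0.25 (adjusted p = 0.0302).

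**Figure D2:**
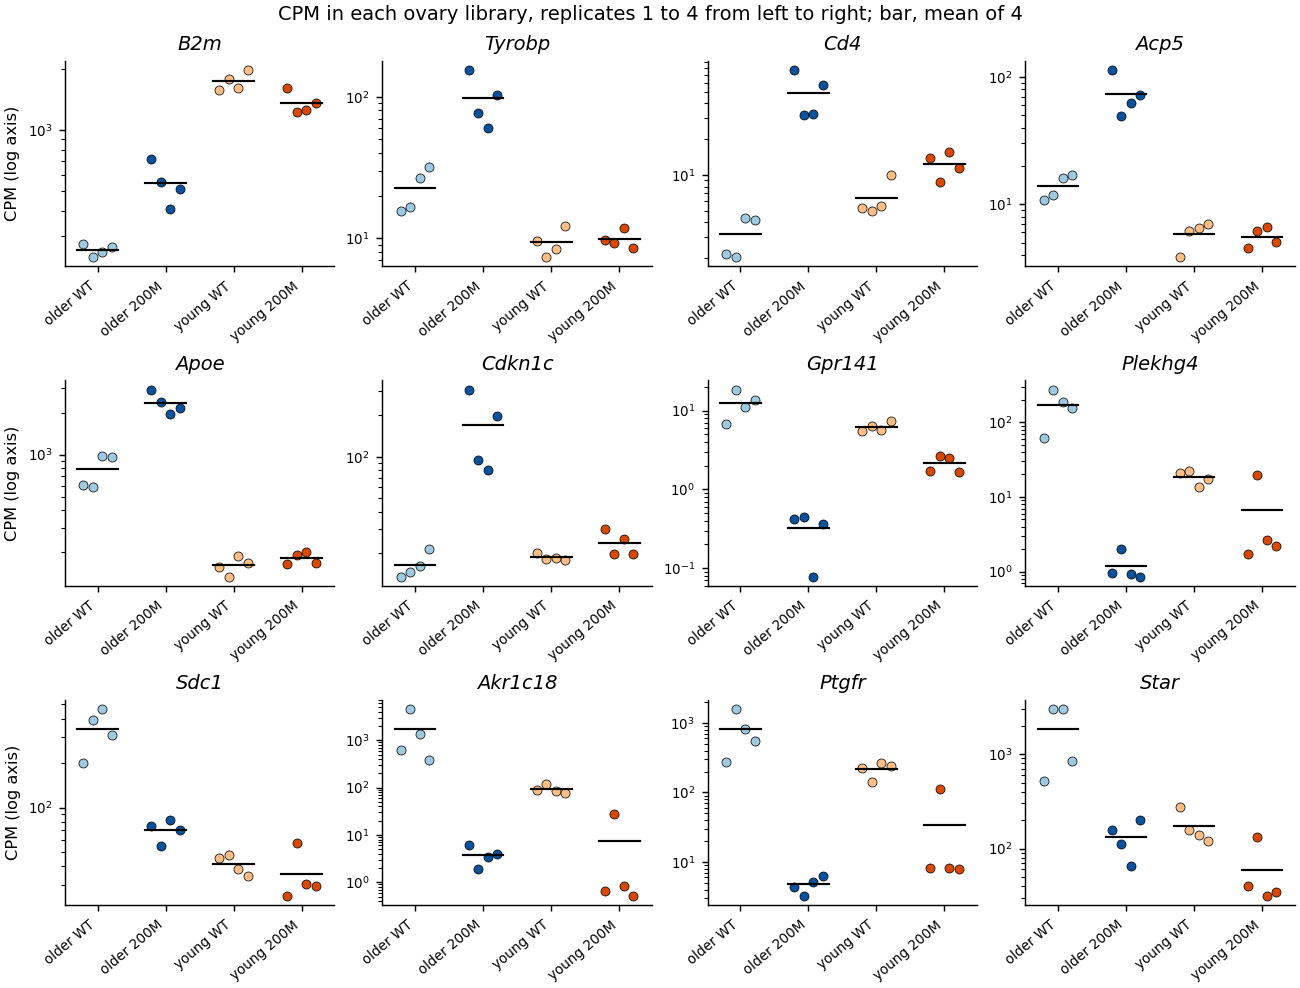
CPM in each of the 16 libraries is plotted on a log axis for 9 genes with an interaction and for the luteal genes Akr1c18, Ptgfr and Star, with 1 point per library (replicates 1 to 4 from left to right) and a bar at the mean of each group. The older 200M points lie apart from the older WT points in all panels, and in young ovary a single 200M library lies far above its group for Plekhg4, Akr1c18, Ptgfr and Star.

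The 18 genes whose 200M effect was more negative in older ovary were led by Gpr141, Lipg and Plekhg4, with fold changes below 0 in both cohorts. Gpr141, an orphan G protein-coupled receptor, stood at 6.71, 18.4, 11.2 and 13.7 CPM in older WT and at 0.421, 0.449, 0.0784 and 0.359 CPM in older 200M ovary. Young ovary held 5.47, 6.35, 5.72 and 7.42 CPM in WT and 1.74, 2.69, 2.47 and 1.68 CPM in 200M. The genotypes did not overlap in either cohort, the young fold change was -1.53 ± 0.33 (adjusted p = 0.196), and the interaction was -3.72 ± 0.52 (adjusted p = 0.0181), called in each of the 16 fits that left out 1 library. Lipg, the endothelial lipase, stood at 483, 1434, 1173 and 346 CPM in older WT and at 18.4, 11.4, 9.88 and 23.3 CPM in older 200M ovary. Its levels in young ovary were 53.7 to 61.0 CPM in WT and 14.2, 33.3, 10.4 and 15.4 CPM in 200M, and the interaction was -4.14 ± 0.62 (adjusted p = 0.0181). Its 2 genotypes did not overlap in either cohort, and young 200M replicate 2 was the highest of its group.

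Plekhg4, a guanine nucleotide exchange factor, had the most negative interaction, -5.77 ± 0.95 (adjusted p = 0.0246). It stood at 62.1, 272, 185 and 155 CPM in older WT and at 0.947, 2.02, 0.941 and 0.862 CPM in older 200M ovary. The young libraries stood at 20.8, 22.3, 13.6 and 17.4 CPM in WT and at 1.74, 19.9, 2.64 and 2.20 CPM in 200M, so that 1 library alone reached the WT level. Without that library, young 200M replicate 2, the interaction was -4.10 (adjusted p = 0.0416). Sdc1, a cell surface heparan sulfate proteoglycan, stood at 201, 390.4, 462 and 309 CPM in older WT and at 75.0, 54.6, 81.8 and 70.2 CPM in older 200M ovary, and its young genotypes overlapped (interaction -2.07 ± 0.37, adjusted p = 0.0302).

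The young genotypes overlapped for Gas2, Map1b, Bmp6, Gm19410 and Gm4673. Gas2, a cytoskeletal protein, stood at 12.7 to 18.2 CPM in older WT and at 5.17 to 8.18 CPM in older 200M ovary, and between 8.82 and 11.3 CPM in all young libraries (interaction -1.24 ± 0.23, adjusted p = 0.0354). Map1b, a microtubule-associated protein, had an interaction of -0.82 ± 0.16 (adjusted p = 0.037). Bmp6, a ligand of the TGF-beta superfamily made by oocytes and other cells, stood at 44.9 to 55.9 CPM in older WT and at 24.9 to 35.6 CPM in older 200M ovary, with young values of 13.9 to 20.7 and 17.3 to 21.3 CPM (interaction -1.04 ± 0.20, adjusted p = 0.037). The predicted genes Gm19410 (-3.54 ± 0.66, adjusted p = 0.0354), Gm17322 (-2.99 ± 0.57, adjusted p = 0.0371) and Gm4673 (-1.67 ± 0.32, adjusted p = 0.0388) were also called. Gm17322 was also below WT in all young 200M libraries (-0.79 ± 0.39, adjusted p = 0.571). Gm17322 overlaps Cyp11a1 on the same strand and Gm4673 overlaps Lsr on the other, so their reads may be shared.

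Most luteal genes were lower in older 200M ovary, and the size of their interaction changed with young 200M replicate 2. Of 18 luteal genes, all tested, 11 were called lower in older 200M ovary and 1 higher (Apoe), against 5.01% and 5.49% of all genes. With the older cohort fitted by itself, 7 were called lower and 1 higher, against 183 and 209 of all 15776 genes. The list was chosen with earlier results of these data known. It holds Star, Cyp11a1, Runx2 and Sfrp4, which the paper names among the most lowered genes of 200M ovary. These counts are therefore not independent of that report. The list's median fold change was -1.40 in older and -0.66 in young ovary, with a median interaction of -0.65. For the interaction 0 were called lower, 8 had an unadjusted p under 0.05 and a more negative effect in older ovary, where 6.52% of all genes did, and 1 was called higher (Apoe). Without young 200M replicate 2 the median interaction was -0.45 with 0 called lower. Without the 2 oviduct-rich libraries 2 were called lower (Ptgfr and Scarb1), and without all 3 libraries 3 were (Ptgfr, Sfrp4 and Scarb1), with a median of -0.48. With the young cohort fitted by itself, 11 of the 18 were called lower in young 200M ovary, as were 2.59% of all genes. The young libraries of 11 did not overlap with 200M lower, against 4.96% of all genes, and the older libraries of 8 did not, against 6.31%.

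Ptgfr, the receptor through which prostaglandin F2-alpha starts luteal regression, stood at 277, 1576, 824 and 545 CPM in older WT and at 4.42, 3.26, 5.10 and 6.32 CPM in older 200M ovary. In young ovary it stood at 227, 142, 263 and 237 CPM in WT and at 8.15, 113, 8.24 and 8.02 CPM in 200M. Young 200M replicate 2 alone lay near the WT libraries. The interaction was -4.73 ± 1.09 (adjusted p = 0.0661), and without that library -2.63 (adjusted p = 0.112). Without the 2 oviduct-rich libraries it was -5.05 (adjusted p = 0.0315), and without all 3 libraries it was -2.94 (adjusted p = 0.0155).

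Akr1c18, which inactivates progesterone in regressing corpora lutea, stood at 617, 4545, 1350 and 378 CPM in older WT and at 6.10, 1.91, 3.45 and 3.88 CPM in older 200M ovary. Young ovary held 91.2, 118, 85.3 and 75.5 CPM in WT and 0.668, 27.4, 0.824 and 0.517 CPM in 200M. The interaction was -5.25 ± 1.34 (adjusted p = 0.0961), and without young 200M replicate 2 it was -1.70 (adjusted p = 0.674), or -1.94 (adjusted p = 0.671) without all 3 libraries. Sfrp4, a secreted Wnt antagonist of the corpus luteum, stood at 1808, 3887, 2945 and 2229 CPM in older WT and at 28.8, 24.8, 16.4 and 34.8 CPM in older 200M ovary. Its levels in young ovary were 280.4 to 404 CPM in WT and 7.88, 262, 8.08 and 11.8 CPM in 200M. Its interaction moved from -4.39 (adjusted p = 0.116) to -1.41 (adjusted p = 0.156) without that library, and it was -1.39 (adjusted p = 0.0411) without all 3. For both genes the older and the young 200M libraries all lay below the WT libraries of their cohort.

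Runx2, a transcription factor of luteinizing granulosa cells, stood at 40.4, 87.8, 101 and 63.3 CPM in older WT and at 6.63, 6.07, 5.10 and 5.03 CPM in older 200M ovary. The young libraries stood at 243, 169, 192 and 175 CPM in WT and at 18.2, 131, 19.9 and 17.1 CPM in 200M. Its interaction of -1.64 ± 0.77 (adjusted p = 0.356) became -0.28 (adjusted p = 0.741) without young 200M replicate 2 and -0.44 (adjusted p = 0.469) without all 3. The study's text mentions a young 200M mouse whose other ovary held corpora lutea, and the labels do not say which library came from it. Star, which carries cholesterol into mitochondria for steroid synthesis, stood at 519 to 2995 CPM in older WT and at 64.9 to 201 CPM in older 200M ovary. In young ovary Star stood at 122 to 276 CPM in WT and at 39.8, 132, 31.5 and 35.0 CPM in 200M, with an interaction of -2.25 ± 0.81 (adjusted p = 0.219), or -1.49 (adjusted p = 0.403) without young 200M replicate 2.

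**Figure D3:**
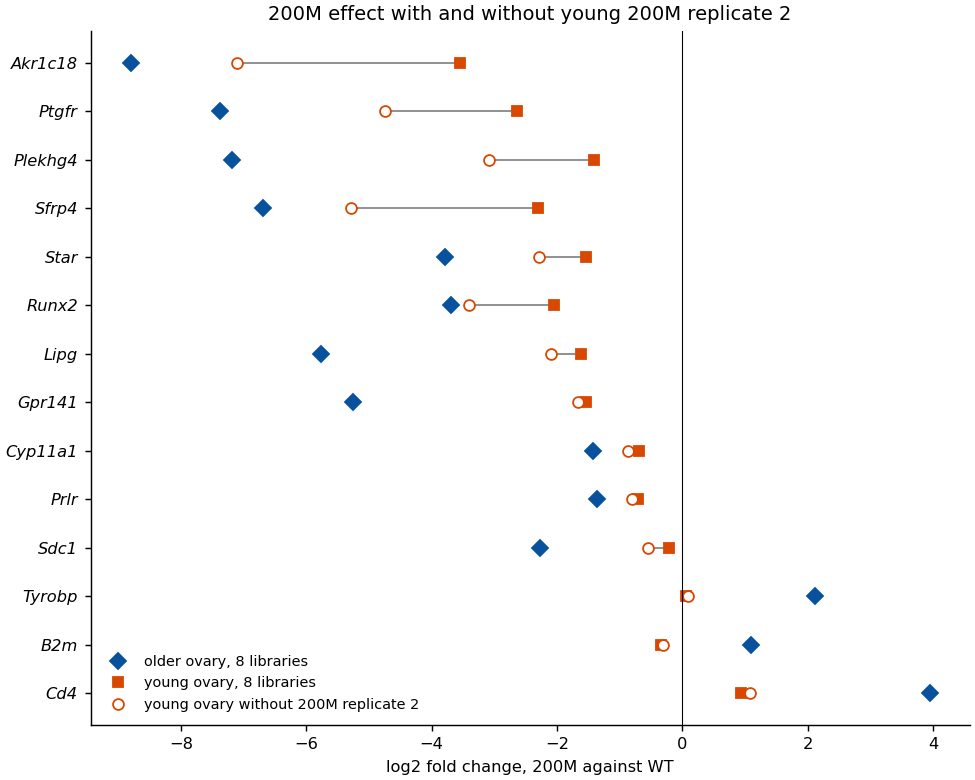
For 14 genes, the log2 fold change (200M over WT) is plotted for older ovary (diamonds), young ovary (squares) and young ovary without 200M replicate 2 (open circles). The young values of Akr1c18, Ptgfr and Sfrp4 move from -3.55, -2.64 and -2.30 to -7.11, -4.74 and -5.28 without that library, towards the older values, and those of B2m, Tyrobp and Cd4 hardly move.

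Of the steroidogenic genes, which include Akr1c18 and Star, 15 were tested and 0 were called for the interaction in either direction, 3 had an unadjusted p under 0.05 and a more negative effect in older ovary, where 6.52% of all genes did, and the median was -0.55, or -0.32 without the 2 oviduct-rich libraries. Cyp11a1, which makes pregnenolone from cholesterol, was lower in 200M by 1.43 ± 0.33 on the log2 scale in older ovary (adjusted p = 0.0115), with an interaction of -0.74 ± 0.46 (adjusted p = 0.493). The interactions of Hsd3b1, which makes progesterone from pregnenolone, of Cyp17a1, which leads to androgens, and of Cyp19a1, the aromatase, were -0.13 ± 0.27, -0.51 ± 0.76 and -0.77 ± 1.08. The receptors Lhcgr (for LH) and Prlr (for prolactin) had interactions of -0.17 ± 0.65 and -0.67 ± 0.56.

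Follicle genes were not called for the interaction, and of all genes 0.399% were. Of 19 genes of growing-follicle granulosa cells, 0 were called, 16 had values below 0, and the median was -0.57, from -0.20 in older and 0.18 in young ovary. Of all 15776 genes, 7917 had values below 0. Without the 2 oviduct-rich libraries the median interaction was -0.17. Fshr, the receptor for follicle-stimulating hormone, was lower in older 200M ovary by 1.03 ± 0.27 on the log2 scale (adjusted p = 0.0242), with an interaction of -0.86 ± 0.38 (adjusted p = 0.322). With the older cohort fitted by itself, Fshr was not called, and 0 of the 19 granulosa genes were. Esr2, the estrogen receptor of granulosa cells, stood at 189 to 263 CPM in young WT and at 324 to 424 CPM in young 200M ovary without overlap, and its older genotypes overlapped, with an interaction of -0.78 ± 0.30 (adjusted p = 0.247), or -0.42 without the 2 oviduct-rich libraries. The inhibin subunit Inha had an interaction of -0.72 ± 0.38 (adjusted p = 0.413), or -0.40 without these.

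Of 22 oocyte genes tested, 0 were called for the interaction, whose median was 0.03, or -0.11 without young 200M replicate 2, and the medians were 0.34 in older and 0.36 in young ovary, with 22 and 20 values above 0. Of all 15776 genes, 8546 older and 8087 young values were above 0. The oocyte growth factor Gdf9 had an interaction of -0.20 ± 0.33 (adjusted p = 0.81). Kit, the receptor of Kit ligand in oocytes and theca cells, was called higher in older 200M ovary (0.94 ± 0.16, adjusted p = 0.00205), and its young value was 0.61 ± 0.16 (adjusted p = 0.316) without overlap. With the older cohort fitted by itself, Kit was not called, and 0 of the oocyte genes were. Of 10 theca and interstitial genes, 0 were called for the interaction, whose median was 0.11, or 0.05 without all 3 libraries, and Insl3, a theca hormone, and Nr2f2, a nuclear receptor of stromal cells, were called higher in older 200M ovary, by 1.58 ± 0.27 and 0.61 ± 0.09.

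No gene of the cell cycle list was called, and the interactions had the same sign. All 25 of its genes had a more negative effect in older ovary, with a median interaction of -0.43 and 6 with an unadjusted p under 0.05, where 6.52% of all genes had one and a more negative effect. The median was -0.25 without the 2 oviduct-rich libraries. In young ovary 25 of 25 were above 0, with a median of 0.46 and with 10 whose young libraries did not overlap, where 4.86% of all genes did not, and 6 were called higher with that cohort fitted by itself, where 1.26% of all genes were. In older ovary the median was -0.01 and 12 of 25 were above 0. Top2a, the topoisomerase of dividing cells, stood at 90.5, 125, 122 and 108 CPM in young WT and at 159, 128, 152 and 186 CPM in young 200M ovary, and at 98.3 to 160.3 and 83.4 to 121 CPM in older WT and older 200M ovary. These genes rise and fall together in dividing cells, so they are not independent values.

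Of 30 cholesterol genes, 1 was called for the interaction (Apoe). An unadjusted p under 0.05 and a more negative effect in older ovary were found for 7, and for 6.52% of all genes. The list's median interaction was -0.33, from -0.36 in older and -0.02 in young ovary. It was -0.21 without the 2 oviduct-rich libraries and young 200M replicate 2. Of 24 extracellular matrix genes 0 were called, with a median interaction of -0.23, or -0.04 without young 200M replicate 2. It was -0.37 with 2 called lower without the 2 oviduct-rich libraries. In older 200M ovary 6 matrix genes were called lower and 1 higher, against 5.01% and 5.49% of all genes. With the older cohort fitted by itself, 1 was called lower and 0 higher, against 183 and 209 of all 15776 genes. The basement membrane collagens Col4a1 and Col4a2, which overlap on opposite strands, had interactions of -0.76 ± 0.20 and -0.79 ± 0.21 (adjusted p = 0.103 and 0.116). Of 11 immediate early genes 0 were called, with a median of -0.34. Nr4a1, an orphan nuclear receptor induced by LH, stood at 35.7, 269, 54.1 and 200 CPM in older WT and at 17.4, 39.2, 15.0 and 17.1 CPM in older 200M ovary (interaction -2.06 ± 0.74, adjusted p = 0.219).

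For 15 genes of the ovulatory LH response the median was -0.16 with 0 called, or -0.07 without young 200M replicate 2, and Tnfaip6, which stabilizes the matrix of the expanding cumulus, had an interaction of -2.30 ± 0.58 (adjusted p = 0.0892). Lists of endothelial, smooth muscle and pericyte, and blood genes had medians of -0.18, 0.14 and 0.31 with 0 called, which were -0.10, -0.05 and 0.05 without the 2 oviduct-rich libraries. The endothelial receptor Kdr had an interaction of -0.54 ± 0.18 (adjusted p = 0.203).

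**Figure D4:**
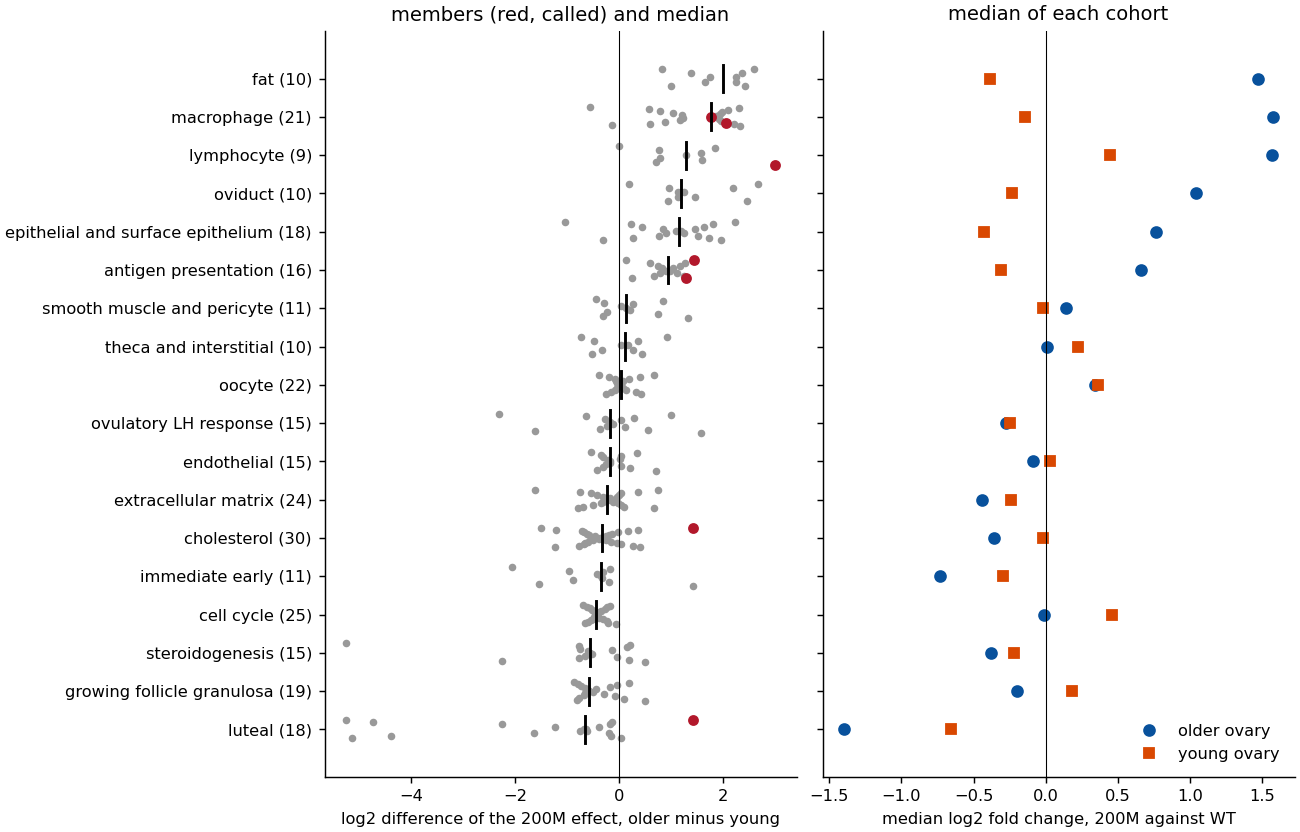
The left panel plots the interaction (log2) of each tested gene by list, with called genes in red and a bar at the list's median, and the right panel plots the median log2 fold change of each list in older and in young ovary. Macrophage and antigen presentation genes lie mostly above 0, at medians of 1.78 and 0.95, and cell cycle genes all lie below 0. The numbers in brackets count the genes tested.

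Markers of tissues attached to the ovary were measured in the same libraries. The oviduct list had a median interaction of 1.19 over 10 tested genes, with 0 called and 10 above 0. Without the 2 oviduct-rich libraries that median was 1.01 and 2 genes were called, Ovgp1 at 5.44 and Pax8 at 3.37 (adjusted p = 0.0425 and 0.0485). Its summed level was 149 to 1227 CPM in older WT, 223 to 4454 in older 200M, 433 to 979 in young WT and 191 to 917.5 in young 200M ovary. The fat list had a median interaction of 2.00 over 10 genes with 0 called, which became 0.39 without the 2 oviduct-rich libraries. The epithelial and surface epithelium list had a median of 1.15 over 18 genes with 0 called, which became 0.50 without these libraries. Over the same fit the median of the macrophage list was 1.80 and that of the antigen presentation list 0.82. The part of oviduct and fat tissue in the other results was not tested.

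**Figure D5:**
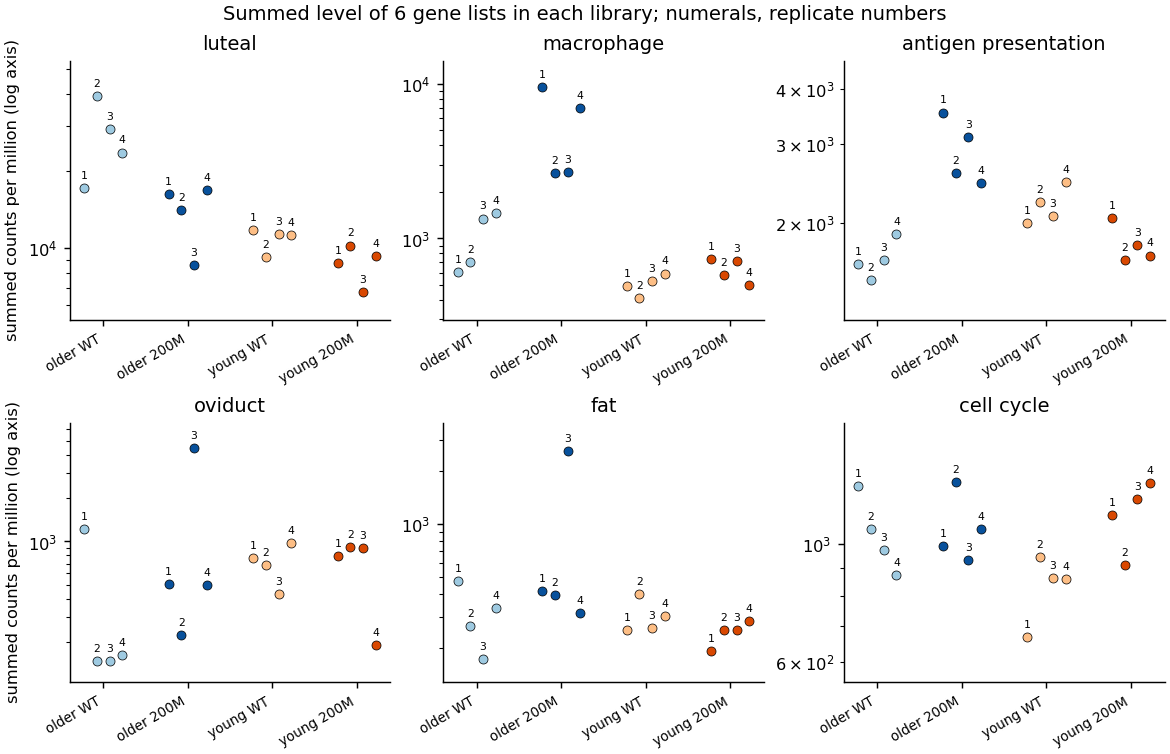
Summed CPM of 6 lists is plotted on a log axis for each of the 16 libraries by group, with the replicate number above each point. Older 200M replicate 3 stands highest for the oviduct and fat lists, at 4454 and 2598 CPM, and the older 200M libraries lie above the older WT libraries for the macrophage and antigen presentation lists.

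The genes called in both cohorts were 6, and each moved the same way in both. They were chosen after their values were seen. Kcng4, a subunit of potassium channels, and Csdc2, an RNA-binding protein, were called higher in 200M ovary in both cohorts, and Tmem178, Sectm1b, A730049H05Rik and Tmem159 were called lower in both.

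The upstream 250 bases of RefSeq promoters (GRCm38.p6) were searched on both strands for the NR5A motif CAAGGTCA and the RUNX motif TGTGGTT, since NR5A and RUNX factors act in granulosa and luteal cells. Of 66 named genes, 48 had a promoter entry, of which 0 held the NR5A motif and 3 the RUNX motif (Runx2, Arhgap45 and Gas2). Of all 32851 windows, 1.33% held the first and 4.4% the second. A gene counted if any of its windows held the motif, so the gene counts and these window shares have unlike units. A match describes these letters in this window.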

How the data were processed

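Libraries were grouped by the labels. The deposited gene counts were made by the authors with STAR 2.7.1a and featureCounts on mm10, unstranded for older and reverse-stranded for young ovary. The tables were joined by gene ID (55401 IDs). The authors' own fold changes and p-values in the tables were not used. Of the 16 libraries, 8 WT columns occur in 2 tables and differed in 0 genes.

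Counts of the 16 libraries were fitted together in edgeR 4.0.16 (R 4.3.3) with TMM scaling, 1 mean per group and the quasi-likelihood F test, over genes that passed filterByExpr in each cohort. The SE is the fold change divided by the square root of F. CPM values are TMM-adjusted. Calls had a Benjamini-Hochberg adjusted p under 0.05. Replicates differed by more than counting noise in each of 24 pairs (smallest chi-square per degree of freedom 3.87), so each counts as 1 mouse. Code was tested on simulated data.

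Alternatives used DESeq2 1.42.0, limma 3.58.1 and other settings. Named genes were Zeb1, Zeb2, Gm13648 and Gm15884, a fixed set of 14 ovarian genes, the 10 called genes of smallest p in each direction with a symbol and libraries that did not overlap in at least 1 cohort, in each list up to 4 called members or else the 2 of smallest p, and genes called in opposite directions in the 2 cohorts (0 found). The comparison and the lists were chosen with earlier results of these data known. Gm15884 was left out by the count filter. Positions are from GENCODE on GRCm38.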

Additional observations from a re-analysis of the deposited data

Results flagged for a closer look

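Of 340 groups of 4 libraries examined, 35 had a highest or lowest library whose gap to its nearest neighbour, divided by the group's range, reached Dixon's 95% critical ratio of 0.829. Chance gives about 1 in 20 groups. Young 200M replicate 2 was that library in 9 groups, older 200M replicate 3 in 7, older 200M replicate 2 in 6 and older WT replicate 1 in 5.

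Young 200M replicate 2 stood high for Ptgfr (ratio 0.998), Akr1c18 (0.989), Sfrp4 (0.985), Runx2 (0.975), Plekhg4 (0.95), Star (0.917) and Sdc1 (0.838), and low for the cell cycle gene Cenpf (0.913) and the summed blood list (0.867). Older 200M replicate 3 stood high for the summed fat list (0.954), the summed oviduct list (0.932), Fabp4 (0.924), Pax8 (0.921), St14 (0.856) and Alas2 (0.829), and low for the summed steroidogenesis list (0.836). Older WT replicate 1 stood high for the summed oviduct list (0.985), Kit (0.955), Pax8 (0.935), Ccdc39 (0.895) and St14 (0.83). Older 200M replicate 2 stood high for Plekhg4 (0.926), Nr4a1 (0.901), the summed oocyte list (0.863), Bmp6 (0.854) and Npm2 (0.851), and low for Notch3 (0.972).

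In older WT ovary, replicate 2 stood high for Cyp17a1 (0.886) and low for Atf3 (0.83), and replicate 3 stood low for the summed smooth muscle and pericyte list (0.855). In young WT ovary, replicate 2 stood low for Lhcgr (0.888), replicate 3 high for the summed granulosa list (0.991) and replicate 4 high for Cd4 (0.881). In young 200M ovary, replicate 3 stood low for Fshr (0.899) and replicate 4 low for Ccdc39 (0.879).

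The named genes whose 200M effect differed between the cohorts by edgeR's interaction test were 23, given here as log2 values of older minus young. The difference was positive for Myh6 (4.60), Cdkn1c (3.02), Cd4 (3.0), Acp5 (2.49), C7 (2.34), Naip5 (2.31), Tyrobp (2.06), Fgr (2.02), Fcer1g (1.78), B2m (1.45), Apoe (1.42), H2-D1 (1.30) and Arhgap45 (1.23). It was negative for Plekhg4 (-5.77), Lipg (-4.14), Gpr141 (-3.72), Gm19410 (-3.54), Gm17322 (-2.99), Sdc1 (-2.07), Gm4673 (-1.67), Gas2 (-1.24), Bmp6 (-1.04) and Map1b (-0.82). Cohort and chemistry cannot be told apart in these values.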

How the results depend on the processing

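The interaction count of 63 became 392 with DESeq2, 1004 with limma voom and quality weights, 683 with each cohort fitted by itself, 123 with no filter on low counts, 41 with all 24 ovary libraries in the fit and 25 over genes with no gene on the other strand. The older count of 1657 became 392 with that cohort fitted by itself, 2895 with voom and 908 over genes with no gene on the other strand. The young count of 6 became 69 with DESeq2, 10 with no filter, 606 with that cohort fitted by itself and 543 with voom. The causes were not tested. Of the 63 genes, 62 were also called with DESeq2 and 63 with voom. Leaving out 1 library gave 3 to 304 for the interaction, 958 to 2414 for older ovary and 0 to 52 for young ovary. Leaving out the 2 libraries rich in oviduct markers, chosen after seeing the data, gave 330 for the interaction and 68 for young ovary, and leaving out young 200M replicate 2 as well gave 211 and 305. A replicate block gave 0 calls for the interaction, 824 for older ovary and 0 for young ovary, but same-numbered libraries did not deviate together (correlations of -0.38 to 0.17 in older and -0.23 to 0.02 in young ovary), 0 libraries correlated best with their own number, and the numbers do not pair these samples. No named value changed direction past the threshold.

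Limits were 4 mice per group, 1 pooled estimate of spread over cohorts with unequal spread, and cohorts that differ in age, breeding history and chemistry at the same time. Genes with few counts, such as Gpr141 in older 200M ovary, have imprecise fold changes.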
